A study of Homo sapiens with 12 samples.

Results

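The peaks described here are those that lie where protein-coding genes overlap one another, in lists of RNA sites bound by an antibody against 1-methylguanosine (m1G). A MetDiff peak was included when its exon blocks shared at least 1 base with the spans of 2 or more protein-coding genes of the GRCh38 RefSeq table, and a MACS2 summit when it lay inside 2 or more such spans. This held for 613 of 9585 MetDiff peaks (6.40%) and for 124 of 3705 MACS2 summits (3.35%). The peaks lay in 333 different sets of genes with 661 genes, and the summits in 89 sets with 177 genes. Genes placed on unlocalised or alternate scaffolds were left out, because their positions are not those of the chromosome.

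The RNA came from PANC-1, an established human line of pancreatic ductal adenocarcinoma. Its 12 libraries formed 4 groups of 3, all of experiment 2: input RNA and m1G immunoprecipitated (IP) RNA from cells labelled WT control, and the same from cells in which TRMT5 was knocked down with siRNA for 4 days. Per the protocol, siRNAs were given by reverse transfection with DharmaFECT 1, the label of the control cells gives no treatment, and polyadenylated RNA was fragmented before the IP. Separate cultures for the replicates are not stated. Both lists cover the whole series: no value belongs to a library and no column is labelled as a contrast of knockdown and control. Therefore no groups were compared, no value has a replicate error and the depth is unknown. The column taken as fold has no header; by its position it was taken for enrichment in the IP against input, and it would mean something else if it held another contrast. All folds, false discovery rates (FDR) and −log10 q values are the authors'. Among markers of the line, KRT8, KRT18, KRT19 and VIM had MetDiff peaks, while KRT7 and EPCAM had 0 peaks and 0 summits. Markers of immune, acinar and islet cells and the fibroblast markers DCN and LUM also had 0 of both, whereas COL1A1 had 5 peaks with folds up to 3.21 and 1 summit.

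Neighbouring genes can share stretches of DNA. Genes on opposite strands may overlap at their 3′ ends, where both transcripts run into one another, or at their 5′ ends, where both start from a common promoter region, or 1 may lie inside the other, and their RNAs are then complementary over the shared part. Genes on the same strand overlap when transcription reads from one gene into the next and a joint (read-through) transcript is annotated as a gene of its own, or when alternative first exons are spliced to common exons, as in the protocadherin gamma cluster. m1G is a methylated guanine best known from tRNA, where TRMT5 places it next to the anticodon and where it helps to keep the reading frame. A read from a stretch that belongs to several genes can be given to any of them. A library that keeps the strand can separate genes of opposite strands, but not genes of the same strand. Strand use in these libraries and in the counting was not given in the sources used here.

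Peaks at overlapping 5′ ends often lay in promoter windows, so their sequence is shown. The windows below run from 250 bases before to 50 bases after an annotated start site, on the strand of the gene named, and come from RefSeq (GRCh38.p14). Among the genes considered, shown are the 4 windows with the MetDiff peaks of highest fold that had at least 50 bases inside a window. Also shown is the window with the highest −log10 q summit of the other gene sets. A whole chromosome was left out before this choice, and its genes listed here had no known strand. It held ZFTRAF1/TMEM276-ZFTRAF1 (fold 43.8), LRRC14/LRRC24 (16.2) and PARP10/GRINA (15.9), above some of the folds shown. Whether these peaks lay in a promoter window was not tested. Capitals mark the exonic bases of the MetDiff peak, or the 15 bases centred on the summit for PRDX5. The windows were chosen after their values were seen.

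PBLD, chr10:68332879-68333178, minus strand: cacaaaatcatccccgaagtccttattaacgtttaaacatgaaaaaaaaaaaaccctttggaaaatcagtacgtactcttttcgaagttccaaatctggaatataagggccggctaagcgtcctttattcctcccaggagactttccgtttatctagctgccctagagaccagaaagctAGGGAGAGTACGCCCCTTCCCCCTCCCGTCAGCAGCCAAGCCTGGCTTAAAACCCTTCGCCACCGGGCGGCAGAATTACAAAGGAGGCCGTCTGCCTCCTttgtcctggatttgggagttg
GPS1, chr17:82050682-82050981, plus strand: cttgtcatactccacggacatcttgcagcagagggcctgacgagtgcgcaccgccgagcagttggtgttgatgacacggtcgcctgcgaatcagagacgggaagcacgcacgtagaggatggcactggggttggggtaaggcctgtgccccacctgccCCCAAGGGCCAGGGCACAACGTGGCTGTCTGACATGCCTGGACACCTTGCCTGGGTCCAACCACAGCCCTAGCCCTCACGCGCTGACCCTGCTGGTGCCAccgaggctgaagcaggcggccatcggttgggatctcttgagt
EPS8L2, chr11:705981-706280, plus strand: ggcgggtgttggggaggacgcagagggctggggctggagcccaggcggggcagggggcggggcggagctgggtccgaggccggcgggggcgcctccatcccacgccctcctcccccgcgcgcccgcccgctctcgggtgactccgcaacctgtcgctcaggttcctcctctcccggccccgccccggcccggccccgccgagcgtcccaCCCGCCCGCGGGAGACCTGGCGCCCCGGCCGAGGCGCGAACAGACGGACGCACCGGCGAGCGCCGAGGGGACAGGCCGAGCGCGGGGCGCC
DLG4, chr17:7219787-7220086, minus strand: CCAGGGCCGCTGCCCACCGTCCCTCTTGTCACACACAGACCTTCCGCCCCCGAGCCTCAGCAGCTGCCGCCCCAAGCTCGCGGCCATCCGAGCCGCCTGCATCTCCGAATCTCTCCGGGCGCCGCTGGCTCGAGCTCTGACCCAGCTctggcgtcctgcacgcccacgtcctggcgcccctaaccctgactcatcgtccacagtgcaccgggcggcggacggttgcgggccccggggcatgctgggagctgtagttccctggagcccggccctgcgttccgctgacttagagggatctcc
PRDX5, chr11:64318036-64318335, plus strand: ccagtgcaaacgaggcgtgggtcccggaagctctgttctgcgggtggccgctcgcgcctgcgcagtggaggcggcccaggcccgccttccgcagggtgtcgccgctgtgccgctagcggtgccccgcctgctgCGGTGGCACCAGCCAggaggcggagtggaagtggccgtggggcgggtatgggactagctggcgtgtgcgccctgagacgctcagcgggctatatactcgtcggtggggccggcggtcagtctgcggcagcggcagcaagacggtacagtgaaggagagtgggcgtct

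The peak in the PBLD window had a fold of 45.2 and covered the start site of PBLD, as the GPS1 peak (18.7) and the EPS8L2 peak (11.8) covered theirs. The peak in the DLG4 window (11.5) belonged to the gene ID of the opposite strand, that of ACADVL, and came no nearer than 104 bases to this DLG4 start. Guanine made up 25% of the capitals in PBLD, 27.0% in GPS1 and 44.0% in EPS8L2. In DLG4 it made up 46.9% read on the plus strand of the peak, and 23.8% read on the minus strand of the window. The median over 34943 promoter windows was 28.7%. That median covers whole windows on the strand of the gene and not only marked bases, so the shares differ in kind. The letters GGGCGG, searched on both strands, occurred 1 time in the PBLD window, 0 times in that of GPS1, 5 times in that of EPS8L2, 3 times in that of DLG4 and 1 time in that of PRDX5. Of all windows, 44.9% held them. The match in PBLD lay inside the peak, and the match in PRDX5 outside the marked bases.

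In fold, peaks in overlapping genes were close to the rest of the list. Their median was 4.53, with quartiles of 3.04 and 7.29 and a range from 1.32 to 45.2, beside a median of 4.49 (quartiles 3 and 7) for the 8781 peaks in 1 protein-coding gene. A fold of at least 10 was listed for 68 of the 613 (11.1%), beside 12% of all MetDiff peaks, and an FDR under 0.01 for 570 (93.0%), beside 91.8%. The median length was 101 exonic bases in both groups, and 25.9% of the peaks in overlapping genes had several exon blocks, beside 34.4% of those in 1 gene. All these are descriptions, because peaks are not replicates, and no test was made. At the edge of the rule, 28 peaks had at most 10 bases in 2 spans at a time and a median fold of 5.06, while 25 peaks in 1 gene that had another span within 50 bases had a median of 5.28.

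The peaks were spread over many genes. Of the 333 gene sets, 193 held 1 peak and 31 held 4 or more, and 421 Ensembl gene IDs were used for the 613 peaks. Where peaks that shared an exonic base were joined, they formed 488 places, of which 390 held 1 peak. Stretches in 2 or more spans made up 2.08% of the bases of protein-coding spans and 5.67% of the exonic bases of MetDiff peaks; spans contain introns and the peaks do not, so the 2 shares differ in kind. In all, 4592 of 19879 protein-coding genes (23.1%) overlapped another, and 619 of these 4592 (13.5%) had at least 1 of the 613 peaks. Peaks elsewhere in these genes are not in this count. On chromosomes 5 and 8 the included peaks made up 10.8% and 10.5% of all MetDiff peaks, the highest shares of any chromosome, and on chromosome X 3.54%; of the 35 peaks on chromosome 5, 20 lay in the protocadherin gamma cluster.

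Antisense pairs made up most of the peaks whose genes had a known strand. The share of antisense layouts among all annotated overlaps is not given here, so this majority is not shown to be particular to the peaks. The strand was taken from the RefSeq promoter table, which gives it for 15842 genes (79.7%), and it could be settled for 419 of the 613 peaks. Of these, 293 (69.9%, 95% Wilson interval 65.4 to 74.1) had genes on both strands and 126 genes on 1 strand. The interval treats peaks as independent, which they are not: 96 of the 293 shared bases with a peak of another ID on the opposite strand. Without the read-through genes the share rose to 81.1% of 360. As a check of the strands, 3099 of 3249 genes (95.4%) had all of their peaks in 1 gene on the strand of the table. The median fold was 4.81 for antisense, 4.92 for same-strand and 4.21 for the 194 peaks of unknown strand. These 194 include the 20 peaks of the protocadherin gamma cluster and read-through pairs such as CSNK1E with TPTEP2-CSNK1E. The share of 69.9% therefore leaves out layouts that are likely on 1 strand. Of all 613 peaks, the 293 antisense peaks made up 47.8%.

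**Figure D1:**
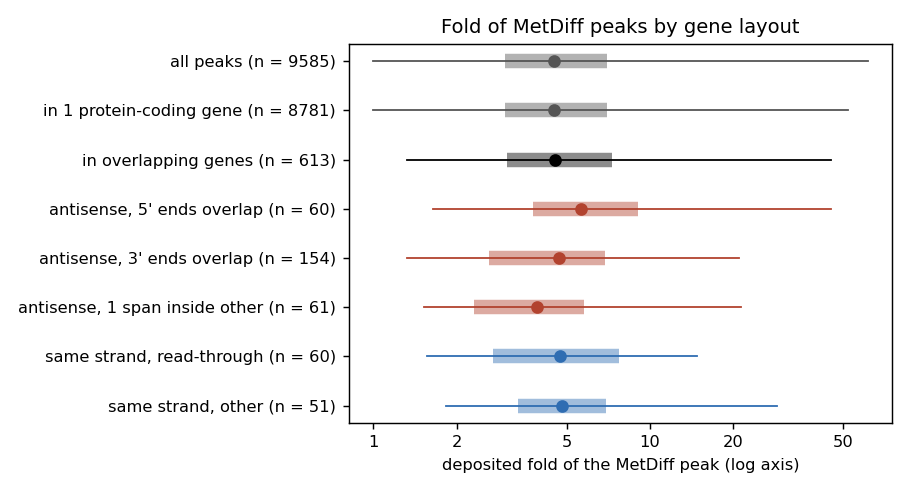
Deposited fold of MetDiff peaks (log axis) by the layout of the genes at the peak. Points are medians, thick bars quartiles and thin lines the range; the peaks where 5′ ends overlap have a median of 5.62, and the other antisense and same-strand groups lie between 3.90 and 4.83.

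By the place where the genes meet, 154 antisense peaks lay where 3′ ends overlap, 60 where 5′ ends overlap and 61 where 1 span lay inside the other; the rest involved more than 2 genes or another layout. Peaks at overlapping 5′ ends had a median fold of 5.62 (quartiles 3.79 and 9.10), with 13 of 60 (21.7%) at 10 or more. Peaks at overlapping 3′ ends had a median of 4.69 (2.63 and 6.88), with 12 of 154 (7.79%) at 10 or more. Where 1 span lay inside the other the median was 3.90, with 6 of 61 (9.84%) at 10 or more. The 5′ group thus had the highest share of large folds of the 3, and its quartiles still overlapped those of both others. Of the 60 peaks at 5′ overlaps, 37 (61.7%) touched a promoter window of one of their genes, as did 0 of 154 at 3′ overlaps. This contrast follows in large part from the layout itself. Over all 613 peaks the share was 12.1%, beside 7.06% of peaks in 1 gene. Among peaks in 1 gene, those in a promoter window had a median of 6.02 and those outside 4.38, beside 5.00 and 4.50 for the peaks in overlapping genes.

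Measured along the gene on the strand of the peak, the peaks at 3′ overlaps had a median place of 93.9% of the span from the 5′ end (quartiles 82.2% and 98.2%), and those at 5′ overlaps 2.41% (0.635% and 14.5%). Both follow in part from the layout itself. Peaks in 1 gene lay at a median of 64.2%. In the opposite gene, the peaks at 3′ overlaps lay at a median of 94.1% and those at 5′ overlaps at 0.569%, so peaks at 3′ overlaps lay near the end of both genes.

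**Figure D2:**
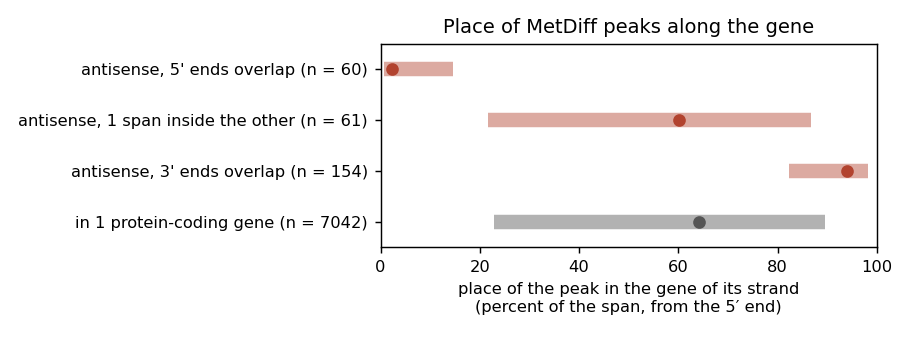
Place of MetDiff peaks along the span of the gene on their strand (percent from the 5′ end). Points are medians and bars quartiles: 5′ overlaps sit at 2.41%, 3′ overlaps at 93.9% and peaks in 1 protein-coding gene at 64.2%.

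The 12 gene sets of highest fold included antisense pairs, genes on the same strand and pairs whose strands were not all known. PBLD, which encodes a phenazine biosynthesis-like protein, had the peak of highest fold, 45.2 (chromosome 10, 68332900 to 68332999, minus strand, FDR 2.29e-05). It ranked 9 in the whole list. Of its 100 bases, 29 lay in the span of PBLD and 100 in that of HNRNPH3, an RNA-binding protein of the opposite strand. ZFTRAF1 and the read-through gene TMEM276-ZFTRAF1 followed with 43.8. EDEM2, a factor of ER-associated degradation, and MMP24-AS1-EDEM2 had 28.8. DNASE1L1, a DNase I-like gene, and TAFAZZIN, a gene of cardiolipin remodelling, had 28.2. The lipid enzyme TMEM86B and PPP6R1, a regulatory subunit of a protein phosphatase, had 27.9 on the same strand. A peak spliced from MBD3, a chromatin repressor subunit, to UQCR11, a subunit of respiratory complex III, had 26.4 with 52 bases in MBD3, 235 in UQCR11 and 0 in both. Of all 613 peaks, 21 had no base in 2 spans at once, 19 of them with several exon blocks.

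Further down, HEMK1, a protein methyltransferase gene that starts opposite C3orf18, had a fold of 25.3, with 48 of 151 bases in C3orf18. DBNL, which encodes a drebrin-like actin-binding protein, had 21.4 over PGAM2, the muscle phosphoglycerate mutase, whose span overlaps its own. SEC61A1, the channel subunit of the ER translocon, had 21.0 over the 3′ end of RUVBL1, a chromatin-remodelling ATPase of the opposite strand, at chromosome 3, 128071334 to 128071633. GPS1, a subunit of the COP9 signalosome, had 18.7 at its start. Its span overlaps that of RFNG, a glycosyltransferase of Notch signalling, by 880 bases at their 5′ ends. A peak under the RFNG strand, which lay outside the span of GPS1, shared 85 bases with the GPS1 peak and had a fold of 25. At least 85 of the 100 bases of the GPS1 peak thus lay outside the span of GPS1. KCNK6, a potassium channel, had 17.9 opposite YIF1B, a trafficking protein. LOC124901234 with QKI, an RNA-binding protein, and PRKAR1B, a regulatory subunit of protein kinase A whose gene runs opposite DNAAF5, also had 17.9.

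**Figure D3:**
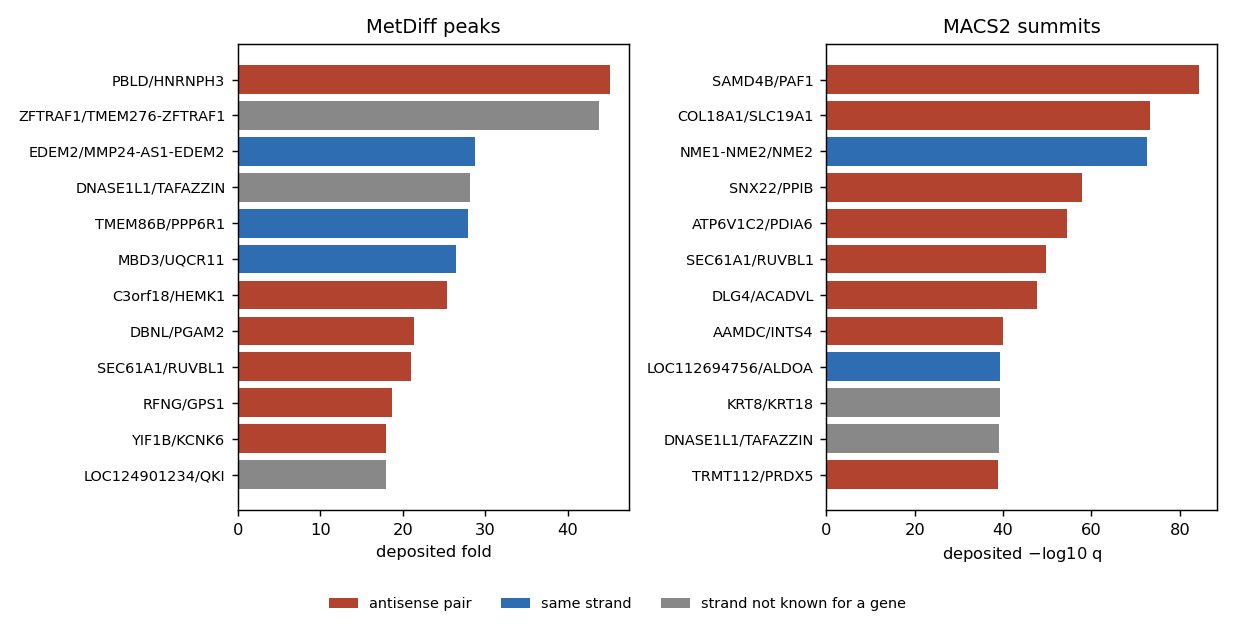
The 12 gene sets with the highest deposited fold of a MetDiff peak (left) and with the highest deposited −log10 q of a MACS2 summit (right), coloured by the strands of the genes. PBLD/HNRNPH3 leads by fold with 45.2 and SAMD4B/PAF1 by −log10 q with 84.3.

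Many peaks stood at 1 place under gene IDs of both strands. Of the 613, 145 (23.7%) shared an exonic base with a peak of another ID on the opposite strand, beside 4.33% of all MetDiff peaks. Such a place needs overlapping exons of different gene IDs, so the rule fixes part of this share. Of the 415 such peaks in the whole list, 263 lay in 1 protein-coding gene and 7 in none. At 3′ overlaps the share was 42.2%, at 5′ overlaps 18.3% and where 1 span lay inside the other 26.2%. In 72 pairs both peaks lay in overlapping genes. They shared a median of 100 bases, and 0 of the 72 had the same exon blocks on both strands.

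The folds on both strands of a place were alike. The higher fold exceeded the lower by a median ratio of 1.11 and by at most 1.5 in 68 of 72 pairs (94.4%), with Spearman's rho of 0.912 across pairs, which are not independent replicates and share bases. The plus strand was higher in 28 pairs, the minus strand in 39, and 5 had equal folds. Neighbouring peaks of 1 gene ID in 1 gene, which share no bases, had a median ratio of 1.72, and 38.4% lay within 1.5. Both peaks of a pair rest on the same stretch of genome, and without strand the RNAs of its genes cannot be told apart.

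**Figure D4:**
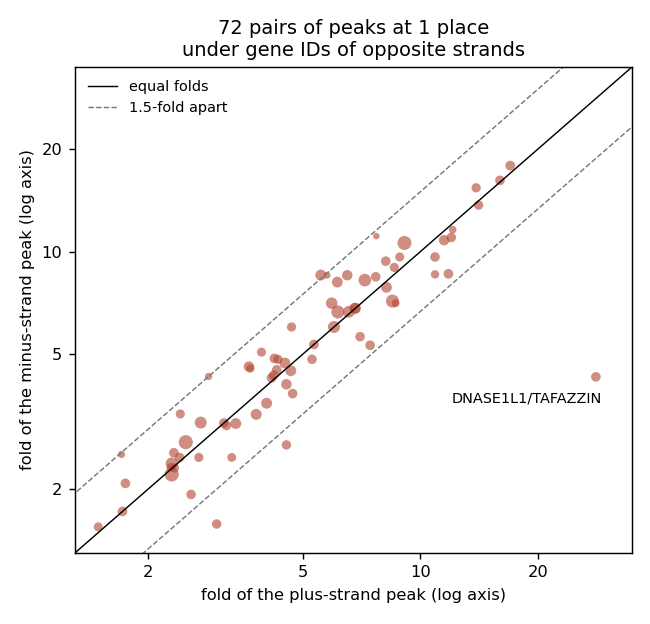
Deposited fold of the plus-strand and the minus-strand peak in 72 pairs at 1 place (log axes), with point area rising with the shared bases. Most pairs lie between the dashed lines, 1.5-fold apart, and DNASE1L1/TAFAZZIN lies outside them with 28.2 and 4.28.

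The pairs with the most shared bases included DSE, a dermatan sulfate epimerase gene, and TSPYL1, with folds of 2.30 and 2.21 over 298 shared bases. PCYT2, an enzyme of phosphatidylethanolamine synthesis, and NPB, which encodes neuropeptide B, had 2.75 on the minus strand, that of PCYT2, and 2.50 on the plus strand over 294. C1orf122 and YRDC, a tRNA-modifying enzyme gene, had 9.10 and 10.6 over 288 where their 5′ ends overlap. GNPTG, a subunit of a lysosomal enzyme tagging transferase, and UNKL had 6.14 and 6.64 over 241. HEXD, a hexosaminidase, and OGFOD3 had 7.20 and 8.24 over 220. DNASE1L1/TAFAZZIN had the largest difference, 6.59-fold. Its plus-strand peak, 350 bases long, had 28.2 and its minus-strand peak, 100 bases within the former, had 4.28 (FDR 0.00479 and 2.14e-08).

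In SNX22/PPIB, which join a sorting nexin gene and the ER cyclophilin gene at their 3′ ends, 1 spliced peak on the minus strand, that of PPIB, had a fold of 7.05 and met 2 peaks on the plus strand. The first of these had 8.64 and shared 40 bases with it, and the other had 5.92 and shared 175. The minus-strand fold thus lay between those of the plus strand. In the same overlap lay 2 summits, with −log10 q of 57.8 and 41.2. In COL18A1/SLC19A1, a collagen gene and the reduced folate carrier gene, 4 of 5 peaks were listed on the plus strand, with folds from 1.71 to 4.06, and 1 on the minus strand with 2.53. In the same overlap lay 7 summits, with −log10 q from 7.17 to 73.3.

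**Figure D5:**
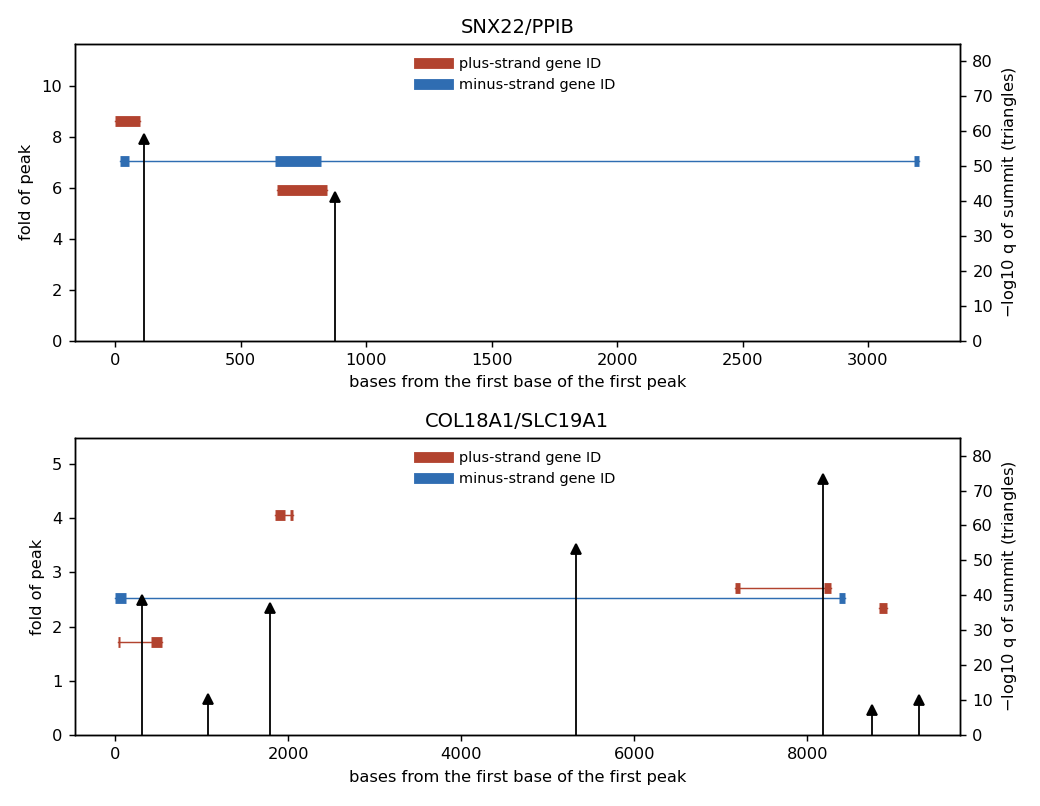
Peaks at SNX22/PPIB and COL18A1/SLC19A1 by distance from the first base of the first peak (bases), with exon blocks as thick bars at the height of the deposited fold, and MACS2 summits as triangles (−log10 q, right axis). At SNX22/PPIB 1 minus-strand peak meets 2 plus-strand peaks; COL18A1/SLC19A1 holds 7 summits, the highest at 73.3.

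Of 167 antisense gene sets, 93 held 1 peak in the overlap and so could show 1 strand at most. Of the 74 sets with several, 43 (58.1%) had peaks on both strands and 31 on 1. At 3′ overlaps 30 of 46 such sets had both, and at 5′ overlaps, where 40 of 50 sets held 1 peak, 5 of 10. Peaks outside the overlap, such as that of RFNG, are not in these counts. In SEC61A1/RUVBL1 both peaks were on the strand of SEC61A1, with folds of 3.59 and 21.0. In SAMD4B/PAF1 all 3 peaks belonged to PAF1, a subunit of a transcription elongation complex, with folds of 3.49, 5.74 and 9.68.

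Of the 271 gene sets with peaks on 1 strand, 19 had them under several IDs. The protocadherin gamma cluster, whose genes encode neuronal adhesion proteins, had 20 peaks under 20 gene IDs at chromosome 5, 141512226 to 141512378, inside the spans of 22 genes. Their folds were of 3 values between 3.58 and 4.00, 14 of them 4.00, and the place counts as 1 of the 488. PCDHA and UGT1A genes, with the same kind of shared exons, had 0 peaks. ENDOG/SPOUT1/KYAT1-SPOUT1, on the strand of the methyltransferase gene SPOUT1, had 8 peaks at 4 places under 2 IDs, with folds from 4.42 to 9.5. CSNK1E, a casein kinase gene, and its read-through partner had 7 peaks under 1 ID with folds from 1.73 to 8.29, and PLA2G4B, a phospholipase gene, with JMJD7-PLA2G4B had 7 with 2.44 to 9. LRRC14/LRRC24 also had 7, 5 on the plus and 2 on the minus strand, from 2.57 to 16.2. In 50 pairs of same-strand peaks of different IDs outside the protocadherins, the median ratio of folds was 1.17 and 43 (86.0%) lay within 1.5.

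Read-through genes, annotated as the joint product of neighbours, accounted for 120 of the 613 peaks (19.6%). Of 105 such symbols in the table, 38 had a peak and 16 a summit. TMEM276-ZFTRAF1 had 6 peaks with folds up to 43.8, PPAN-P2RY11 7 up to 15.6, NT5C1B-RDH14 1 with 14.8 and NME1-NME2 4 up to 12. Of these 120, 61 also lay in the first gene of the name and 62 in the second; no peak in a part shared with a single gene can be given to the read-through RNA. PPAN, a nucleolar protein of ribosome assembly, had peaks under 2 IDs, and the last one reached P2RY11, a nucleotide receptor gene, with 10.2.

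Of 13 pairs taken as known overlapping pairs, the table had overlapping spans for 10, and 1 had a peak in the overlap. This was WDR83/DHPS, where a peak on the minus strand, that of DHPS, the deoxyhypusine synthase that modifies the translation factor EIF5A, had a fold of 3.17 (FDR 6.31e-10). Of its 200 exonic bases, 3 lay in both spans. A peak of another ID on the same strand shared 134 bases with it and had 3.86. Outside the overlap DHPS had 4 peaks and WDR83 had 3. THRA/NR1D1, TYMS/ENOSF1, PKD1/TSC2, FGF2/NUDT6, ERCC1/POLR1G, TOE1/MUTYH and CYP21A2/TNXB had 0 peaks and 0 summits in the overlap.

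The MACS2 summits carry no strand, so a summit in an antisense pair has no gene of its own. Their −log10 q had a median of 12.1 (quartiles 7.40 and 25.6), beside 13.7 for all summits and 14 for those in 1 gene, and 41 of 124 (33.1%) reached 20, beside 28.9%. By layout, the median was 13.4 in 43 summits at 3′ overlaps, 11.4 in 13 at 5′ overlaps and 7.66 in 6 where 1 span lay inside the other. SAMD4B/PAF1 led with 84.3 (chromosome 19, 39386350), then COL18A1/SLC19A1 with 73.3 (chromosome 21, 45512183). NME2, a nucleoside diphosphate kinase gene, with NME1-NME2 had 72.6. PPIB, the ER cyclophilin, with SNX22 had 57.8, and PDIA6, an ER disulfide isomerase, with ATP6V1C2 54.4. SEC61A1/RUVBL1 had 49.8.

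Next came DLG4, a postsynaptic scaffold gene, with ACADVL, an enzyme of fatty acid oxidation, at 47.6 where their 5′ ends overlap. INTS4, of the Integrator complex, with AAMDC had 39.9. ALDOA, the glycolytic aldolase, with LOC112694756 and KRT8 with KRT18, the keratin pair of simple epithelia, both had 39.3. DNASE1L1/TAFAZZIN had 39.1. TRMT112, a partner of several methyltransferases including tRNA methyltransferases, with PRDX5, a peroxiredoxin gene that starts opposite it, had 38.8. At KRT8/KRT18 the MetDiff list held 1 peak on each strand, with folds of 4.03 (plus) and 3.58 (minus) over 149 shared bases. The order of summits is one of significance and not of enrichment.

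Of the 124 summits, 31 (25%) lay inside a MetDiff exon block, beside 17.7% of all MACS2 summits; seen from the peaks, 41 of 613 (6.69%) held a summit, beside 7%. Within 150 bases of a block lay 88 summits (71.0%), beside 63.6% of all. The 6 strongest inside a block were in SEC61A1/RUVBL1 (49.8, in the plus-strand peak with fold 21.0), SAMD4B/PAF1 (47.8, in a minus-strand peak with 9.68), LOC112694756/ALDOA (39.3, in peaks with 2.6 and 4.46), DNASE1L1/TAFAZZIN (39.1, in the plus-strand peak with 28.2), again LOC112694756/ALDOA (34.0, with 5.66) and PPAN/PPAN-P2RY11 (32.6, with 10.2 and 11.3). The summit of highest −log10 q, in SAMD4B/PAF1, lay outside the blocks. Both lists can rest on the same libraries, and their overlap is no independent evidence.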

How the data were processed

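The labels describe PANC-1 input and m1G IP libraries; the submitters' processing notes name GRCh38, MACS2 2.2.5, STAR 2.7.1, edgeR, DESeq2, featureCounts, bedtools, ChIPseeker, Picard and SAMtools without role or order. Pooling was not given in the sources used here. Per summit, the deposited MACS2 list holds a −log10 value, taken as that of a q-value. Per peak, the deposited MetDiff list holds a p-value (not used further), an FDR as log10 and a ratio read as a fold.

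Spans of 19879 protein-coding RefSeq genes (GRCh38.p14) were intersected with exon blocks and summits in Python 3.11.15 (pandas 2.3.3, numpy 2.4.6), tested on simulated data. Of 20050 protein-coding entries, 171 on scaffolds were left out. Positions count from 1. Ensembl IDs were not matched to symbols, so genes are named by position. Named genes follow a rule: the 12 gene sets of highest fold and of highest −log10 q, the 6 mirrored pairs with most shared bases, the 6 sets with most peaks, the 6 strongest summits inside blocks, 13 known overlapping pairs, and the 4 read-through genes of highest fold. A few genes under this rule are not reported here. The other genes in the text, among them EPS8L2, were chosen after their values were seen. The members, lists and rule were chosen with earlier results of these data known. Alternatives changed the overlap, the genes counted and the thresholds.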

Additional observations from a re-analysis of the deposited data

How the results depend on the processing

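No paired analysis was possible because the lists hold no value per library. The number of peaks stayed within 1.5 times 613 under every alternative run (from 488 places, counted after the data were seen, to 629 peaks with scaffold genes, likewise added), as did the number of summits (98 to 126). The median fold stayed between 4.49 and 4.64 and the median −log10 q of summits between 10.8 and 13.5. The share of antisense peaks was 81.1% without read-through genes, against 69.9%, and between 69.2% and 71.8% otherwise. Peaks with a partner on the opposite strand numbered 145; 0 had identical exon blocks, and 415 were found when all MetDiff peaks were counted, an alternative added after seeing the data. Summits inside a block numbered 31, and 88 within 150 bases. In all, 4 settings moved a value and 29 did not. Depth is unknown, so its bearing on the counts and on genes with 0 peaks could not be quantified here.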
